A study of Gallus gallus with 53 samples.

Results

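The CD40 ligand (CD40L) dose series in wild type DT40 cells comprised 15 of the 53 columns of the deposited table, at 1, 3 and 6 μg/ml and at 15, 30, 45, 60 and 90 min, together with the unstimulated wild type column from which every change was taken, so that 16 of 53 columns were used. They were chosen by their sample titles, without any measured value. DT40 is a chicken B cell line that carries its own B cell receptor. RNA was hybridised to GeneChip arrays of the chicken genome (Affymetrix), and the ligand was a GST fusion of soluble chicken CD154, according to the methods of the study. All cells were grown in RPMI with FBS and none of these 16 columns had an inhibitor or a mutation. 2 other courses at 6 μg/ml CD40L were set beside the wild type values. One was from wild type cells given the MEK inhibitor U0126 for 30 min beforehand (WT + Inh; the labels give 5 mM, whereas the methods give the same figure in micromolar), and the other from cells with the IKKβ S176/181A knock-in (IKKβSA), each with its own unstimulated column.

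CD40 is a receptor of the TNF receptor family on B cells, and its ligand is presented by helper T cells. The trimeric ligand clusters CD40, the receptor tail recruits TRAF adaptor proteins, and these lead to activation of IKK, NF-κB and the MAP kinases. NF-κB target genes in B cells include survival factors and inhibitors of the pathway itself, and their transcripts are known to appear at different times after the stimulus. The dose series addresses how the time of onset, the size and the direction of the transcript changes depend on the amount of ligand.

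Each dose and time was 1 column, which according to the labels combined 2 biological replicates, so no spread between replicates could be computed. There was no later unstimulated column, so that a change with time in culture and a response to CD40L cannot be told apart. The probe set IDs do not pair with the intensity values in this table. Probe sets are therefore given by a letter and a number, no gene is named, no sequence is shown and the B cell markers of the line could not be checked. Intensities were on a linear scale, and column medians lay between 2.74 and 2.93, with the lowest in the unstimulated column and 2.87 to 2.93 in the 5 columns at 6 μg/ml. After taking log2, the 26852 of 38361 probe sets whose log2 level averaged above 1.05 were tested. The standard error of a log2 difference between 2 columns had a median of 0.16, from the deviations of all 53 columns from smooth courses.

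The unstimulated column stood apart from the 15 stimulated ones. The median absolute log2 change between 0 and 15 min was 0.134 in the 1 μg/ml course, 0.133 in the 3 μg/ml course and 0.138 in the 6 μg/ml course, whereas it was 0.084 to 0.103 between any later neighbouring columns of the courses. Of the probe sets tested, 13.1% were lower and 14.5% were higher than the unstimulated column in all 15 stimulated columns. These shares carry no test, since all 15 comparisons use the same column and a change by 15 min would also raise them. Since the 3 doses share the unstimulated column, counts are given below with and without it. The main tests between doses, by pairs and by slope, used only stimulated columns. Sizes and onset times at each dose are changes from the unstimulated column.

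Probe sets with an increase of at least 2-fold over 0 min were more numerous at 90 than at 15 min of every dose and, at 90 min, more numerous at each larger dose. At 90 min 1 μg/ml gave 3 (0.0112% of the probe sets tested), 3 μg/ml gave 32 (0.119%) and 6 μg/ml gave 45 (0.168%). At 15 min the corresponding counts were 0, 2 and 3, at 30 min they were 0, 8 and 3, and at 45 min they were 0, 18 and 17. Probe sets at least 2-fold lower had similar counts at 1 and 3 μg/ml. At 90 min 1 μg/ml gave 21 of them (0.0782%), 3 μg/ml gave 20 (0.0745%) and 6 μg/ml gave 44 (0.164%). At 15 min there were already 6, 7 and 8 of them. With columns centred on their medians, 29 probe sets were higher and 70 lower at 90 min of 6 μg/ml. These counts compare single columns and carry no test.

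**Figure D1:**
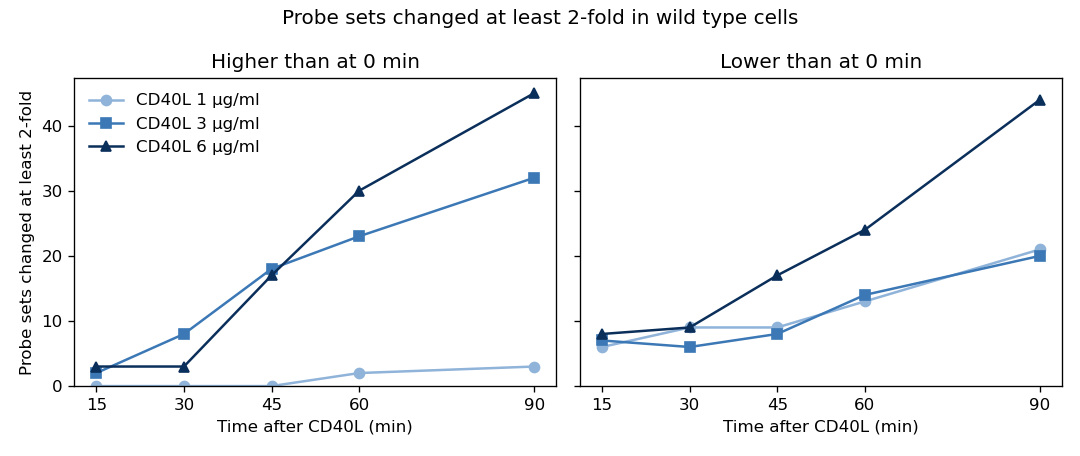
Number of probe sets at least 2-fold higher (left) or lower (right) than in the unstimulated column, against time in min, with 1 line per CD40L dose and no error bars since each point is 1 column. The counts of higher probe sets are lowest at 1 μg/ml at every time and reach 3, 32 and 45 at 90 min. They are larger at 3 than at 6 μg/ml at 30 min (8 and 3) and at 45 min (18 and 17). The counts of lower ones are close at 1 and 3 μg/ml, with 21 and 20 at 90 min, against 44 at 6 μg/ml.

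The column taken as the starting level affected these counts. Against the mean of the 3 unstimulated columns of the table, 9 probe sets were higher and 8 lower at 90 min at 1 μg/ml, 51 and 8 at 3 μg/ml, and 66 and 22 at 6 μg/ml. Against the 15 min column of the same dose, the counts were 17 and 7, 96 and 8, and 40 and 22. Fewer falls than in the main count were therefore found with either alternative at each dose, and both alternatives were chosen after the values were seen.

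When a smooth curve was fitted to each course, the number of probe sets with a changed course was 1021 for 1 μg/ml (3.8% of 26852), 1700 for 3 μg/ml (6.33%) and 1764 for 6 μg/ml (6.57%; limma's moderated F-test, adjusted p under 0.05). The direction of the largest change was upwards for 642 and downwards for 379 at 1 μg/ml. It was upwards for 1143 and downwards for 557 at 3 μg/ml. At 6 μg/ml it was upwards for 688 and downwards for 1076. This balance depended on the scaling: with quantile normalization 491 were upwards and 497 downwards at 1 μg/ml and 1033 and 805 at 3 μg/ml, and with columns centred on their medians 395 and 1263 at 6 μg/ml. Most of these changes were small: the median of the largest absolute log2 change was 0.43, 0.47 and 0.51 at 1, 3 and 6 μg/ml, and only 31, 71 and 104 of the probe sets called were also changed at least 2-fold. Of those 2-fold changes, 5 were rises and 26 falls at 1 μg/ml, 51 were rises and 20 falls at 3 μg/ml, and 53 were rises and 51 falls at 6 μg/ml. Without the unstimulated columns the courses still gave 927, 1516 and 1037 calls. In that fit all wild type courses of the table still shared 1 fitted level at 0 min. These calls are therefore not free of a common starting level. The calls depended on single times, and they numbered 191, 629 and 575 without the columns at 90 min, 298, 726 and 738 without those at 45 min, and 339, 872 and 905 without those at 60 min. The 1 μg/ml count was also 610 without the 30 min columns, and the 6 μg/ml count was 2664 without the 15 min columns.

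Among the 53 rises called and at least 2-fold at 6 μg/ml, the 2-fold level was first reached at 15 min by 3, at 30 min by 2, at 45 min by 14, at 60 min by 11 and at 90 min by 23. Among the 51 rises at 3 μg/ml the numbers at the same times were 1, 8, 15, 12 and 15. The 5 rises at 1 μg/ml reached it only at 60 min (2) or 90 min (3). 50% of the largest change was first reached at 15 or 30 min by 21 of the rises at 6 μg/ml (9 and 12) and by 29 at 3 μg/ml (3 and 26), but by 0 at 1 μg/ml. The rises were chosen separately at each dose, and the time of reaching 2-fold also depends on the size of the change. Of all probe sets tested, 198 (0.737%) were at least 1.5-fold higher at 30 than at 15 min of 3 μg/ml. The part of this step in the 26 was not tested. Falls first reached the 2-fold level at times from 15 to 90 min at each dose. Of the 26 falls at 1 μg/ml, 4 were 2-fold lower at 15 min and 12 became so only at 90 min. The same times held 4 and 9 of the 20 falls at 3 μg/ml, and 7 and 26 of the 51 falls at 6 μg/ml. At each dose 3 of the falls at 15 min were D1, D3 and D4, described below, which rest on the unstimulated columns alone. The falls first reached 50% of their largest change at 15 and 30 min in 8 and 9 cases at 1 μg/ml. These numbers were 7 and 5 at 3 μg/ml, and 13 and 11 at 6 μg/ml. The largest change was that at 90 min for 3, 24 and 34 of the rises and for 16, 12 and 37 of the falls at 1, 3 and 6 μg/ml.

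The course was changed at all 3 doses for 454 probe sets, which is 1.69% of those tested, 44.5% of those called at 1 μg/ml, 26.7% of those called at 3 μg/ml and 25.7% of those called at 6 μg/ml. The 3 courses share their unstimulated column, so no test of this overlap was made. Of the 454, 255 had their largest change upwards at every dose (0.95% of the probe sets tested), 173 downwards (0.644%), and the directions of 26 differed between doses. Of the 26852 probe sets tested, 2889 were called at any dose, with 860 called only at 6 μg/ml, 615 only at 3 μg/ml and 272 only at 1 μg/ml. Each course had its own threshold, so a call at 1 dose only does not show that the other doses had no change. Leaving out the unstimulated columns gave 412 for all 3 doses, and leaving out 45, 60 or 90 min gave 148, 172 or 99.

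The 255 probe sets that rose at all 3 doses did so gradually. Their median log2 change at 1 μg/ml was 0.03 at 15 min, 0.14 at 30 min, 0.25 at 45 min, 0.33 at 60 min and 0.42 at 90 min. At 3 μg/ml the medians were 0.04, 0.23, 0.35, 0.43 and 0.47, and at 6 μg/ml they were 0.07, 0.18, 0.32, 0.43 and 0.46. The quartiles of the 3 doses overlapped at every time, but they show the spread between probe sets and not the error of a dose difference. Part of the likeness of the doses, here and for the falls, is built in, since a call in the same direction at every dose was asked for. The medians of the 173 that fell were -0.17, -0.31, -0.34, -0.37 and -0.48 at 1 μg/ml, -0.13, -0.30, -0.38, -0.39 and -0.47 at 3 μg/ml, and -0.17, -0.32, -0.42, -0.46 and -0.59 at 6 μg/ml. Over all probe sets tested, the median change lay between 0.00 and 0.03 in every column. When doses were compared directly, 62 of the 255 were higher and 6 lower at 6 than at 1 μg/ml, and 32 of the 173 were lower and 6 higher. Of all probe sets tested, 3.16% were higher and 6.47% lower in that comparison, so that the 6 of the 173 that were higher were near the share over all. The levels at 3 and 1 μg/ml differed for 19 of the 255 and 1 of the 173, where 0.473% of all probe sets differed. The 1 of the 173 was near that share.

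**Figure D2:**
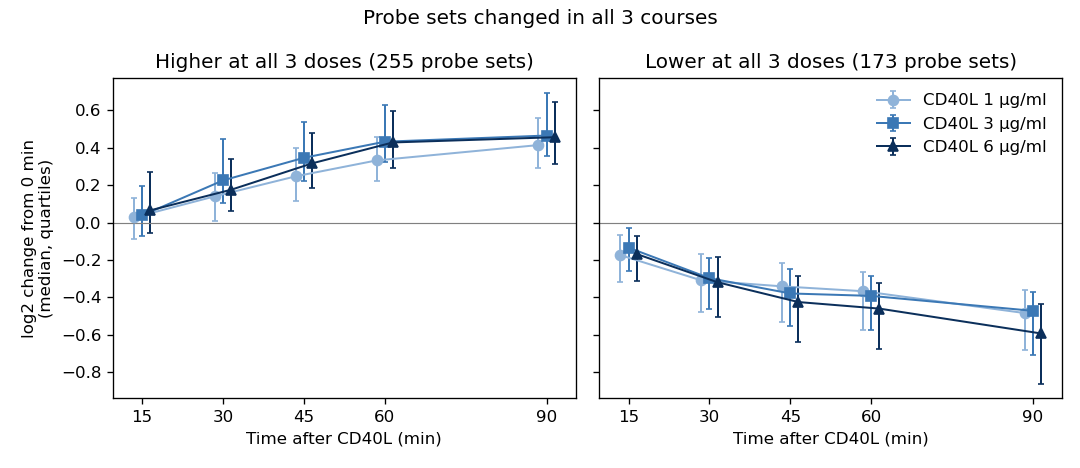
Median log2 change from the unstimulated column, with quartiles as bars, of the 255 probe sets changed upwards (left) and the 173 changed downwards (right) at all 3 doses, against time in min. The 3 doses are drawn slightly apart in time for legibility. They follow each other closely, with medians of 0.42, 0.47 and 0.46 at 90 min on the left and of -0.48, -0.47 and -0.59 on the right at 1, 3 and 6 μg/ml. Part of this likeness is built in, since the choice asked for a call in the same direction at every dose.

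Most members of both sets had the same direction in WT + Inh and IKKβSA cells, whose columns did not set the direction of a call, although they entered the level filter and the common error of the fit. In WT + Inh cells at 90 min of 6 μg/ml, 84.3% of the 255 rises were above the unstimulated column of those cells, where 51.4% of all probe sets were, and in IKKβSA cells the share was 94.5%, against 48.7% of all. Of the 173 falls, 85.0% were below the unstimulated level in WT + Inh and 86.7% in IKKβSA cells, with 48.6% and 51.2% of all probe sets. The CD40L course in WT + Inh cells was called for 54.5% of the rises and 54.3% of the falls, where 7.0% of the probe sets tested were called. In IKKβSA cells it was called for 44.3% and 42.8%, against 3.45% of the probe sets tested. The medians at 90 min were 0.33 in WT + Inh and 0.37 in IKKβSA cells for the rises, and -0.31 and -0.28 for the falls.

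Only 14 of the 454 were changed at least 2-fold at every dose, of which 2 were rises and 12 falls. Probe set U2, the brighter of the rises, had an intensity of 293.6 in the unstimulated column. It was at 281, 325, 421, 517 and 602 at 15, 30, 45, 60 and 90 min of 1 μg/ml, at 308, 445, 665, 833 and 1058 at 3 μg/ml, and at 315, 519.6, 795, 1071 and 1313 at 6 μg/ml. The doses thus kept the same order at every time, and the rise was still going on at 90 min at each of them. In WT + Inh cells U2 had 1360.0 at 90 min of 6 μg/ml, against 354 at 0 min, and in IKKβSA cells it had 1533, against 224. The other rise, U1, was dim and did not rise smoothly. From 6.28 at 0 min it had 7.89, 6.75, 8.58, 8.75 and 19.6 at 1 μg/ml, 5.58, 21.7, 18.9, 22.4 and 19.1 at 3 μg/ml, and 13.2, 13.9, 13.8, 20.4 and 15.8 at 6 μg/ml. Its intensity was near the unstimulated level up to 60 min at 1 μg/ml and up to 15 min at 3 μg/ml, and high in every column at 6 μg/ml. U1 thus belonged to the 338 probe sets of the step pattern described below, with a gap of 0.59 on the log2 scale. The part of that pattern in the rise of U1 was not tested.

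The median change of the 12 falls was larger at 90 than at 15 min at every dose and lay close together between doses at 90 min. Their median log2 change at 15 min was -0.48, -0.40 and -0.34 at 1, 3 and 6 μg/ml, and at 90 min it was -1.19, -1.21 and -1.21. Part of this closeness is built in, since a fall of at least 2-fold at every dose was asked for. The largest fall came at 90 min at all 3 doses for 6 of the 12, while 3 of the 12 were at least 2-fold lower in all 15 stimulated columns and are described below as D1, D3 and D4. At 90 min all 12 were also below the unstimulated level of WT + Inh cells and of IKKβSA cells, where 48.6% and 51.2% of all probe sets were. For D1, D3 and D4 this rests on the unstimulated columns of those cells, in which alone they were high. A comparison of doses called 3 of the 12, of which 2 were lower and 1 higher at 6 than at 1 μg/ml, and none was called between 3 and 1 or between 6 and 3 μg/ml. Of all probe sets tested, 6.47% were lower and 3.16% higher at 6 than at 1 μg/ml. Probe set D2 fell steadily. It had 14.6 in the unstimulated column, then 10.5, 9.52, 9.23, 6.39 and 4.77 at 1 μg/ml, 14.2, 10.4, 8.57, 6.48 and 5.02 at 3 μg/ml, and 11.8, 9.74, 8.14, 5.19 and 4.63 at 6 μg/ml. By 90 min the 3 doses had reached nearly the same level, and the log2 difference between 6 and 1 μg/ml over the course was -0.07 ± 0.16 (95% interval).

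**Figure D3:**
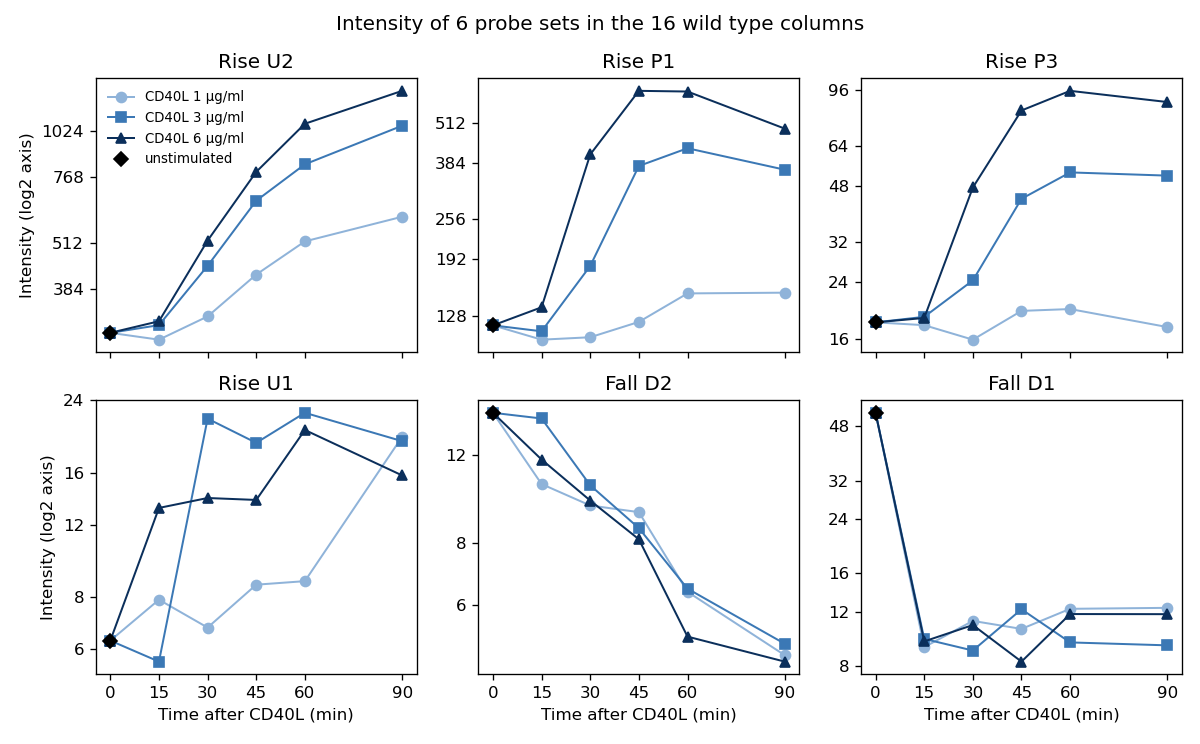
Intensity on a log2 axis against time in min for 6 probe sets in the 16 wild type columns, each point being 1 column, without error bars. U2, P1 and P3 are ordered by dose from 30 min on, U1 is high from 90 min at 1 μg/ml, from 30 min at 3 μg/ml and from 15 min at 6 μg/ml, D2 falls to between 4.63 and 5.02 by 90 min at every dose, and D1 is at 12.4 or lower in all stimulated columns, against 53.04 at 0 min.

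At least 2-fold lower in all 15 stimulated columns, already at 15 min, were 4 probe sets, of which D1, D3 and D4 belong to the 12 falls above, and 0 were 2-fold higher in all of them. The largest was D1, with 53.04 in the unstimulated column. It had 9.24, 11.2, 10.6, 12.3 and 12.4 at 1 μg/ml, 9.82, 9.004, 12.2, 9.57 and 9.36 at 3 μg/ml, and 9.64, 10.9, 8.29, 11.8 and 11.8 at 6 μg/ml. The level did not follow time or dose after 15 min, and the log2 difference between 6 and 1 μg/ml was -0.09 ± 0.20 (95% interval). In the other cells D1 was likewise high at 0 min only, with 73.5 in WT + Inh and 43.4 in IKKβSA cells, and 11.3 and 7.07 at 15 min of 6 μg/ml. The remaining probe sets were also high at 0 min only, in the other cells as well. Among the stimulated columns, however, D3 was called lower at 6 than at 1 μg/ml, with a log2 difference of -0.39 ± 0.17 (95% interval). D4 and F3 were not called in that comparison. D3 had 4.14 to 6.86 in the stimulated columns and 13.9 at 0 min, D4 had 3.78 to 4.78 and 10.5, and F3 had 2.36 to 3.61 and 7.66. These falls rest on the unstimulated columns alone, and the part of those columns in them was not tested.

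Doses were next compared within times, over the 15 stimulated columns and without the unstimulated one. Between 3 and 1 μg/ml, 127 probe sets differed (0.473% of 26852; limma with dose and time as factors, adjusted p under 0.05), 126 of them higher (0.469%) and 1 lower (0.00372%) at 3 μg/ml. Between 6 and 3 μg/ml, 991 differed (3.69%), with 287 higher (1.07%) and 704 lower (2.62%). Between 6 and 1 μg/ml, 2586 differed (9.63%), with 849 higher (3.16%) and 1737 lower (6.47%). A slope over log2 dose was called for 1404 probe sets (5.23%), 548 upwards and 856 downwards, against 544 and 357 with quantile normalization and 379 and 1239 with centring. These 3 pairs were all that were compared, each adjusted over all probe sets tested.

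Called differences between doses were larger upwards than downwards. Those of at least 1.5-fold numbered 32 higher and 0 lower for 3 against 1 μg/ml, 9 higher and 0 lower for 6 against 3 μg/ml, and 71 higher and 3 lower for 6 against 1 μg/ml. The median log2 difference of the 126 probe sets higher at 3 than at 1 μg/ml was 0.48, whereas the 704 lower at 6 than at 3 μg/ml had a median of only -0.19 and the 1737 lower at 6 than at 1 μg/ml one of -0.18. Probe sets called higher were dimmer and had wider intervals, so a larger difference was needed for a call. For 6 against 1 μg/ml their median intensity was 9.18 and their 95% interval reached 0.15 to either side. For those called lower these were 72.3 and 0.096. For nearly all probe sets a large difference between doses could be bounded as an average over the times. The 95% interval of this average lay within 1.5-fold in either direction for 99.1% in 3 against 1 μg/ml, 99.9% in 6 against 3 μg/ml and 99.0% in 6 against 1 μg/ml, where the interval reached 0.14 to either side at the median. Differences at single times are not bounded by it and are counted below. The interval also holds no error between courses, since each dose was 1 course.

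The many small decreases at 6 μg/ml moved with the level of the probe set. Between 6 and 3 μg/ml, the median log2 difference was 0.04 over the 13426 probe sets below the median level, -0.05 over the 10740 from there to the 90th percentile and -0.05 over the 2686 brightest. Between 3 and 1 μg/ml none of these medians was further from 0 than -0.01. With quantile normalization, 147 probe sets were higher and 68 lower at 6 than at 3 μg/ml, and 752 higher and 621 lower at 6 than at 1 μg/ml. With columns centred on their medians, 239 were higher and 2657 lower, and 624 higher and 3365 lower. The direction of the small shifts at 6 μg/ml therefore depended on the scaling of the columns, whereas 3 against 1 μg/ml gave 84 higher and 2 lower with quantiles and 158 higher and 1 lower with centring. The counts also depended on single times. Between 6 and 3 μg/ml there were 143, 11, 327 and 2 calls when 30, 45, 60 or 90 min was left out. Between 3 and 1 μg/ml there were 602 when 15 min was left out, and 13, 9 and 8 when 30, 45 or 60 min was. Between 6 and 1 μg/ml there were 1565, 724, 1245 and 886 when 30, 45, 60 or 90 min was left out.

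Taken time by time, probe sets that were at least 1.5-fold higher at the larger dose were not evenly spread. For 3 against 1 μg/ml they numbered 24 at 15 min, 247 at 30 min, 237 at 45 min, 274 at 60 min and 64 at 90 min, with 8, 1, 5, 8 and 5 lower. For 6 against 3 μg/ml they numbered 172 at 15 min and then 14, 24, 16 and 51, with 11, 17, 41, 44 and 53 lower. For 6 against 1 μg/ml the numbers higher were 127, 211, 130, 256 and 112, and those lower 5, 10, 38, 115 and 87. Differences in favour of 3 over 1 μg/ml were thus most frequent from 30 to 60 min, and those in favour of 6 over 3 μg/ml at 15 min.

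Large changes between neighbouring columns were also unevenly spread. At 1 μg/ml, 114 probe sets (0.425% of those tested) were at least 1.5-fold higher at 90 than at 60 min and 22 were lower, while each of the 3 steps between 15 and 60 min had 5 to 21 higher. At 3 μg/ml, 198 (0.737%) were higher at 30 than at 15 min and 10 lower, and the 3 later steps had 9 to 36 higher. At 6 μg/ml the steps after 15 min had 16 to 35 higher. From 0 to 15 min, where the unstimulated column enters, 86 were higher and 140 lower at 1 μg/ml, 158 and 160 at 3 μg/ml, and 161 and 104 at 6 μg/ml, so that the count of higher ones was nearly the same at 3 and 6 μg/ml. Of the 114 probe sets of the step at 1 μg/ml, 68 were also among the 198 of the step at 3 μg/ml (59.6% of the first set and 34.3% of the second), and 27 of these 68 were also among the 161 higher at 15 than at 0 min of 6 μg/ml.

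**Figure D4:**
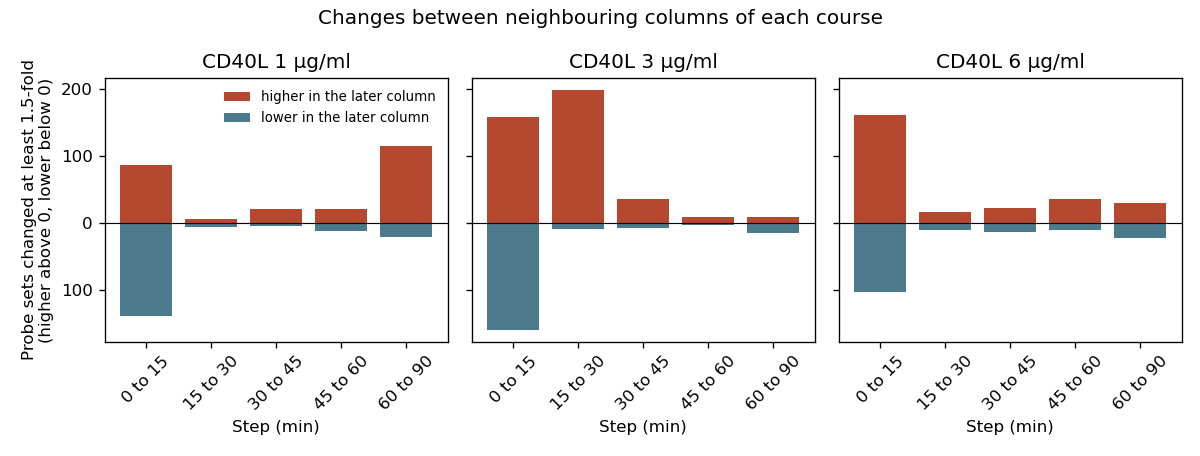
Number of probe sets at least 1.5-fold higher (above 0) or lower (below 0) in the later of 2 neighbouring columns, for each step in min and each CD40L dose. After 15 min the tallest bars are the 114 higher from 60 to 90 min at 1 μg/ml and the 198 higher from 15 to 30 min at 3 μg/ml, while 6 μg/ml has no step above 35 after 15 min.

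For 338 probe sets (1.26% of those tested) 10 columns (90 min at 1 μg/ml, 30 to 90 min at 3 μg/ml and every time at 6 μg/ml) were all above the other 5, and for 52 (0.194%) they were below. With a gap of at least 0.3 on the log2 scale there were 60 of the first kind and 0 of the second. This arrangement of columns was chosen after the values were seen and has no test. Probe set S1 had 59.1 in the unstimulated column. It had 48.7, 47.1, 51.7, 54.6 and 92.7 at 1 μg/ml, 52.0, 97.2, 106.9, 111.8 and 104.3 at 3 μg/ml, and 100.9, 94.7, 94.3, 113 and 93.7 at 6 μg/ml. The 5 low and 10 high columns did not overlap, and within each there was no order by time or dose. In WT + Inh cells S1 had 87.9 at 15 min of 6 μg/ml, against 49.4 at 0 min, and in IKKβSA cells 100.5, against 54.2. Over the 338, the median log2 change at 15 min was 0.45 in WT + Inh and 0.22 in IKKβSA cells, and 0.27 at 6 μg/ml in wild type cells. In the 5 low columns the medians were below the unstimulated column. They were -0.15, -0.26, -0.15 and -0.11 at 15, 30, 45 and 60 min of 1 μg/ml and -0.23 at 15 min of 3 μg/ml. Part of this is built in, since the choice asked for low values there.

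These 338 probe sets were 61 of the 126 higher at 3 than at 1 μg/ml (48.4%), 221 of the 849 higher at 6 than at 1 μg/ml (26.0%) and 2 of the 287 higher at 6 than at 3 μg/ml, and 0 of the probe sets lower at 6 than at 3 or 1 μg/ml. The arrangement itself separates 4 of 5 columns at 3 μg/ml, and all 5 at 6 μg/ml, from 4 of 5 at 1 μg/ml. Part of this sharing, and of the lack of probe sets lower at 6 than at 1 μg/ml, is therefore built in. Over all probe sets tested the 338 made up 1.26%, and the 2 of the 287 were near that share. With a further term in the model for those 10 columns against the other 5, the number of probe sets that differed was 8 for 3 against 1 μg/ml, 1047 for 6 against 3 μg/ml and 255 for 6 against 1 μg/ml, and 188 had a slope over dose. This term overlaps with dose in the same way and takes up part of any dose difference, so these counts do not show what the difference is due to. The labels name nothing that these 10 columns share, and an earlier onset at larger doses and a property of the columns cannot be told apart here.

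A set of probe sets was also chosen without any wild type column, by a change of at least 2-fold at 2 or more times in both the WT + Inh and the IKKβSA course at 6 μg/ml. It held 15 rises and 7 falls. No smaller dose entered this choice, so it can favour probe sets that change most at 6 μg/ml. The values and calls below are therefore a description. In wild type cells the 15 were graded by dose. The median of their largest log2 rise was 0.34 for 1 μg/ml, 1.08 for 3 μg/ml and 1.38 for 6 μg/ml, and 1, 10 and 11 of the 15 reached 2-fold. At 90 min all 15 were higher at 3 than at 1 μg/ml and 11 were higher at 6 than at 3 μg/ml. The dose comparison called 9 of the 15 higher at 3 than at 1 μg/ml, where 0.469% of all probe sets were called, 4 higher at 6 than at 3 μg/ml, against 1.07%, and 14 higher at 6 than at 1 μg/ml, against 3.16%. Of the 15, 6 belonged to the 338 probe sets of the step pattern. The other 9 had medians at 90 min of 0.34, 1.08 and 1.33 at the 3 doses.

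**Figure D5:**
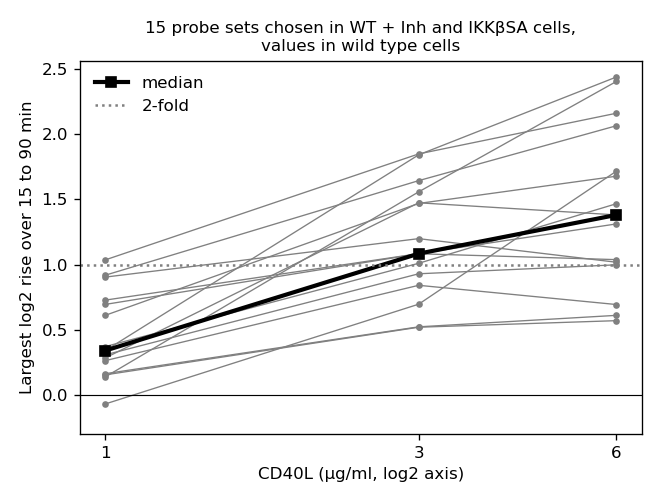
Largest log2 rise between 15 and 90 min in wild type cells (vertical axis) against CD40L dose in μg/ml (log2 axis) for the 15 probe sets chosen in WT + Inh and IKKβSA cells. Each thin line is 1 probe set, the thick line is the median (0.34, 1.08 and 1.38), and the dotted line marks 2-fold. All 15 lines go up between 1 and 3 μg/ml and 11 go up between 3 and 6 μg/ml.

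The doses at which these 15 changed were not the same. P1 and P3 stayed low at 1 μg/ml. P1 had 119.3 at 0 min, then 108, 109.5, 122, 150.2 and 151 at 1 μg/ml, 114, 183, 376, 428 and 366 at 3 μg/ml, and 136, 409, 647, 644 and 493 at 6 μg/ml. The course at 1 μg/ml did not pass the test (limma, adjusted p = 0.28), with a largest log2 change of 0.34, whereas those at 3 and 6 μg/ml did (4.27e-08 and 9.88e-11). P1 was higher by 1.05 ± 0.36 on the log2 scale at 3 than at 1 μg/ml and by 0.64 ± 0.36 at 6 than at 3 μg/ml (95% intervals, limma, adjusted p = 0.00949 and 0.0439). Since P1 and P3 also lead the slopes over dose below, these p-values are given as a description. The level of P1 reached its highest value at 45 or 60 min at the larger doses and was lower at 90 min. P3 had 18.0 at 0 min, 15.9 to 19.8 at 1 μg/ml, 18.7, 24.4, 43.8, 52.99 and 51.8 at 3 μg/ml, and 18.6, 47.5, 82.8, 95.3 and 87.9 at 6 μg/ml. At 6 μg/ml it was thus raised at 30 min to about the level reached at 45 min of 3 μg/ml.

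Another member, picked like C5 and C10 after its values were seen, reached the same level at 3 and 6 μg/ml. C6 had 4.18 at 0 min, 3.55 to 5.09 at 1 μg/ml, 4.40, 7.33, 8.07, 11.6 and 10.6 at 3 μg/ml, and 5.03, 7.57, 7.66, 10.3 and 10.9 at 6 μg/ml. C6 also belonged to the 338 probe sets of the step pattern, with a gap of 0.03 on the log2 scale. The part of that pattern in the equal levels of C6 was not tested. Its log2 difference was 0.91 ± 0.22 between 3 and 1 μg/ml and 0.01 ± 0.22 between 6 and 3 μg/ml (95% intervals; limma, adjusted p = 0.000454 and 0.975), so that a difference beyond 0.22 was not detected between the larger doses. C5 and C10 had their highest level at 90 min at all 3 doses. C5 had 29.4 at 0 min and, at 90 min, 45.0, 81.5 and 94.2 at 1, 3 and 6 μg/ml, with 15 min values of 28.9, 36.9 and 33.9. At 6 μg/ml C5 had 34.9 at 30 min and 52.5 at 45 min. C10 had 9.11 at 0 min and 14.7, 19.3 and 18.7 at 90 min. At 1 μg/ml it was not raised up to 45 min, with 9.07, 8.18 and 8.64. U2, described above, was another member, and it was higher by 0.55 ± 0.17 at 3 than at 1 μg/ml and by 0.24 ± 0.17 at 6 than at 3 μg/ml (95% intervals; limma, adjusted p = 0.00332 and 0.0903). P2 is the only member with a lower level than at 0 min in all columns of 1 μg/ml. It had 10.3 at 0 min and 5.17 to 9.86 at 1 μg/ml, 11.1 to 16.8 at 3 μg/ml, and 11.7, 20.5, 34.0, 32.9 and 26.0 at 6 μg/ml.

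The 7 falls chosen in the other cells did not show a grading of that size. Their median log2 change at 15 min was -1.14 for 1 μg/ml, -1.14 for 3 μg/ml and -1.55 for 6 μg/ml, and at 90 min it was -1.17, -1.17 and -1.12. It was also lowest at 6 μg/ml at 30 min (-1.13, -1.10 and -1.26) and 45 min (-1.24, -1.16 and -1.44). At 60 min it was lowest at 3 μg/ml (-1.02, -1.30 and -1.20). None of the 7 was called between 3 and 1 or between 6 and 3 μg/ml. D3 and H3, 2 of the 7, were called lower at 6 than at 1 μg/ml, where 6.47% of all probe sets were. All 4 probe sets that were low in every stimulated column belonged to these 7.

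The probe sets with the steepest slope over dose are given as a description, since they were chosen by it. Upwards, P1, P2, P3 and P4 led, and P4 had 20.5 at 0 min, 12.9 to 18.7 at 1 μg/ml, 19.6, 18.7, 31.5, 35.0 and 28.4 at 3 μg/ml, and 22.1, 39.0, 55.2, 50.2 and 39.1 at 6 μg/ml. All 4 had most of their rise at 6 μg/ml by 45 min and were lower again at 90 min. Downward slopes were smaller. A slope of at least 0.3 on the log2 scale per doubling of the dose was called upwards for 30 and downwards for 0 probe sets. Downwards, N4 had 45.7 at 0 min, 41.4 to 52.1 at 1 μg/ml, 40.1, 38.4, 38.2, 35.2 and 31.9 at 3 μg/ml, and 39.0, 36.8, 29.6, 26.8 and 22.4 at 6 μg/ml. N2 was different in kind, with a rise at the lowest dose. From 9.38 at 0 min it had 7.50, 10.7, 14.3, 17.8 and 21.4 at 1 μg/ml and 7.73, 11.4, 11.5, 13.6 and 16.4 at 3 μg/ml, but 7.71 to 9.68 at 6 μg/ml.

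Numbered probe sets called at 1 dose only, and at least 2-fold changed there, were of different kinds. L1 and L2 fell at 1 μg/ml and first rose at 6 μg/ml, whereas H1 followed the order of dose from 30 min on. H3 and L3 fell at all 3 doses, and H2 is P2 above. At 1, 3 and 6 μg/ml the largest log2 changes were -1.18, -1.30 and -1.65 for H3 and -1.10, -0.90 and -0.92 for L3. H1, called at 6 μg/ml only, had 6.58 at 0 min, 4.55 to 5.78 at 1 μg/ml, 6.46, 6.45, 7.44, 10.2 and 8.09 at 3 μg/ml, and 6.26, 8.12, 15.2, 22.8 and 14.7 at 6 μg/ml. In WT + Inh cells H1 had 8.30 at 60 min and 5.88 at 90 min, against 5.20 at 0 min. In IKKβSA cells H1 had 2.555 at 60 min and 2.87 at 90 min, against 3.23 at 0 min. L1, called at 1 μg/ml only, had 38.6 at 0 min, then 30.6, 21.8, 16.3, 15.9 and 12.5 at 1 μg/ml and 39.3, 26.7, 23.9, 22.2 and 17.1 at 3 μg/ml. At 6 μg/ml it had 45.2, 60.1, 68.4, 44.3 and 23.0, so that it was above the unstimulated level up to 60 min and below it at 90 min. L2, also called at 1 μg/ml only, had 6.53 at 0 min and 3.03 at 90 min of 1 μg/ml, and at 6 μg/ml it had 7.50, 9.85, 11.1, 6.25 and 4.99. At 0 min of the other courses L1 had only 2.84 (WT + Inh) and 3.89 (IKKβSA), so these could not be used to follow it.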

How the data were processed

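The authors normalized the arrays with RMA, per the labels, and deposited 1 table of intensity values on a linear scale, each column combining 2 biological replicates. The version of RMA and how replicates were combined are not given in the sources used here. The deposited intensities were taken to log2 with no pseudocount, and 11509 probe sets at or under the 30th percentile of the mean were left out. The number of arrays limits the precision.

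Courses were tested with limma 3.58.1 in R 4.3.3 on all 53 columns, with natural cubic splines of time (knots at 25 and 50 min, boundaries at 0 and 90 min, 20 residual degrees of freedom). The moderated F-test took the 3 spline terms of a course (trend = TRUE), adjusted by Benjamini-Hochberg over 26852 probe sets. Doses were compared with limma over the 15 stimulated columns with dose and time as factors (8 residual degrees of freedom), and the slope over log2 dose likewise (9). The errors are deviations from these models. The scripts were tested on simulated data.

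Probe sets described singly are the largest rises (U) and falls (D) called and 2-fold at all 3 doses, the steepest slopes (P, N) and the largest changes called at 6 (H) or 1 μg/ml (L) only. C probe sets were chosen in other cells, and F and S after their values were seen. The columns, sets and tests were chosen with earlier results of these data known. Alternatives were other filters, scalings, spline terms, starting columns and sets of columns.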

Additional observations from a re-analysis of the deposited data

Results flagged for a closer look

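The differences between doses were picked out because the test of the difference itself was passed under the same stimulus and times (limma, adjusted p under 0.05). Between 3 and 1 μg/ml 127 probe sets differed, between 6 and 3 μg/ml 991 and between 6 and 1 μg/ml 2586. At an unadjusted p under 0.05 the numbers were 2277, 6007 and 6901. Each dose was 1 course of 5 columns, so dose and any other difference between the courses cannot be told apart.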

How the results depend on the processing

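No paired analysis was possible because each dose and time is 1 column that already combines the replicates. With 2 spline degrees of freedom the calls were 1778 for 1 μg/ml, 2823 for 6 μg/ml and 934 for all 3 doses, and with only the 16 wild type columns 2965 at 6 μg/ml. Without the unstimulated columns 1037 were called at 6 μg/ml. Leaving out a time gave 610 (30 min), 298 (45 min), 339 (60 min) and 191 (90 min) at 1 μg/ml, 726 (45 min), 872 (60 min) and 629 (90 min) at 3 μg/ml, 2664 (15 min), 738 (45 min), 905 (60 min) and 575 (90 min) at 6 μg/ml, and 148, 172 and 99 (45, 60 and 90 min) at all 3 doses. With a 2-fold minimum there were 31, 71 and 104 at the 3 doses and 14 at all of them.

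For 3 against 1 μg/ml the counts were 602, 13, 9 and 8 without the columns at 15, 30, 45 and 60 min, and 361 when whole courses were compared by their splines. For 6 against 3 μg/ml they were 2896 with centring, 215 with quantile normalization, 143, 11, 327 and 2 without the columns at 30, 45, 60 and 90 min, and 80 by splines. For 6 against 1 μg/ml they were 3989 with centring, 1373 with quantile normalization, 1565, 724, 1245 and 886 without the same times, and 1285 by splines. The slope over dose was called for 901 probe sets with quantile normalization (544 upwards, 357 downwards), 578, 323, 339 and 601 without the same times, and 2438 with linear dose. With centring, 379 were upwards and 1239 downwards. With the term for the 10 columns, chosen after the values were seen, the counts were 8 (3 against 1), 255 (6 against 1) and 188 (slope), while 1047 for 6 against 3 μg/ml was within 1.5 times of the main count. At 90 min of 3 μg/ml, 104 probe sets were 2-fold from the 15 min column.

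Fewer columns carry fewer degrees of freedom; otherwise the cause of these changes was not tested. Filters on dim probe sets kept each count within 1.5 times.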

Other observations

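The 26 probe sets called at all 3 doses with directions that differed between doses had a similar median course at each dose. Their median log2 change was -0.21, -0.13 and -0.15 at 15 min and 0.20, 0.27 and 0.19 at 90 min of 1, 3 and 6 μg/ml. The medians were thus below the unstimulated level at first and above it later at each dose. At 15 min of 6 μg/ml the upper quartile was 0.02. Part of this shape is built in, since the choice asked for largest changes of opposite direction at different doses. In WT + Inh cells the medians were 0.13 at 15 min and 0.39 at 90 min, and in IKKβSA cells -0.01 and 0.23.

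The pairing of probe set IDs and values was looked at over all 53 columns. For the 3591 gene symbols with exactly 2 probe sets, the median correlation of the 2 was 0.055 (given as a description, over columns of shared courses). Of the 100 brightest probe sets, 91 had an ID with 1 symbol, and for 65 of these (71.4%) the symbol began with RN, RO or RP, while 1.51% of all probe sets with 1 symbol did. No name was given to any probe set from this.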
